A study of Mus musculus with 12 samples.

Results

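Myelocytes were compared with promyelocytes, the 2 consecutive stages of mouse granulopoiesis between which the content of the granules changes. The comparison used the 3 myelocyte arrays and the 3 promyelocyte arrays among the 12 arrays of the series, chosen by their labels alone, and 1 value for each of 19937 genes. The platform was the Affymetrix Mouse Gene 1.0 ST array, and every level below is a log2 value, so that a difference of 1 is a fold of 2. The question was which messages change when cells leave the promyelocyte stage. The arrays of the other 2 populations, LSK progenitors and granulocytes, entered the estimate of the spread. They also entered the choice of 1 row for genes with several rows. The authors' normalization of the series and the alternative normalizations included them as well.

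Both populations came from the bone marrow of untreated C57BL/6 mice, and no allele, agent or time separated them: they differed only in the surface gate through which they were sorted. Myelocytes were taken from cells low or negative for c-Kit and CD34 with an intermediate level of Gr-1, and promyelocytes from cells positive for c-Kit, CD34 and CD16/32 with little Gr-1. Cells carrying B220, CD3 or Sca1 had been gated out of both. The labels name the 3 arrays of each stage biological replicates without saying that they came from separate animals, so a p-value here reflects how far these particular samples varied, and that variation can be technical. In sorted pools, fewer cells of a type and less RNA per cell cannot be told apart.

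Promyelocytes are the stage at which the primary, peroxidase-containing granules are filled, and they still grow and divide. Myelocytes are the last stage of this lineage that divides, and they fill the secondary granules, whose main cargo is lactoferrin. Afterwards the cell stops dividing, its nucleus becomes lobed and it acquires the receptors with which a neutrophil finds and kills microbes.

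The defining markers of each stage were checked first. Ltf, which encodes lactoferrin, stood at 13.14, 13.12 and 13.18 in the myelocyte arrays, against 9.00, 7.73 and 8.09 in the promyelocyte arrays. Mpo, which encodes myeloperoxidase, stood at 8.70, 8.82 and 8.72 in myelocytes, against 12.74, 12.84 and 12.22 in promyelocytes. The arrays of the 2 stages did not overlap for either gene. Of the antigens used in the sort, Ly6g of the Gr-1 antigens differed by 7.30, Kit by -2.01 and Cd34 by -5.18, which the gate sets and which are no finding. Fcgr3 (0.80, adjusted p = 0.156) and Fcgr2b (0.64, adjusted p = 0.0825), the CD16/32 genes, were not called.

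A gene was called at a Benjamini-Hochberg adjusted p under 0.05 in limma together with a fold of at least 2. In myelocytes 1517 genes were called higher, 7.61% of those tested, and 1968 were called lower, 9.87%, together 17.5%. The median difference of all genes was 0.01. Of the genes called higher 1504 had no overlap between the arrays of the 2 stages, and of those called lower 1940. Lack of overlap was therefore usual for a called gene, and where given below it adds little to the call. The increases were fewer and steeper: 80 genes were higher by a fold of 16 or more, and 6 were lower by as much. These counts include the sort antigens Ly6g and Cd34, which the gate sets. Against this background each gene list below is described by the number of its measured members called and by its median difference. Of the genes called higher, 150 lay in promyelocytes at or under 4.47, the level that 95% of olfactory and vomeronasal receptor genes do not exceed, so that their folds start from dim signal. The same held in myelocytes for 206 of the genes called lower. Tlr7, Tlr13, Cd300lf, C3ar1 and Slfn1, which are named below, are among the 150.

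**Figure D1:**
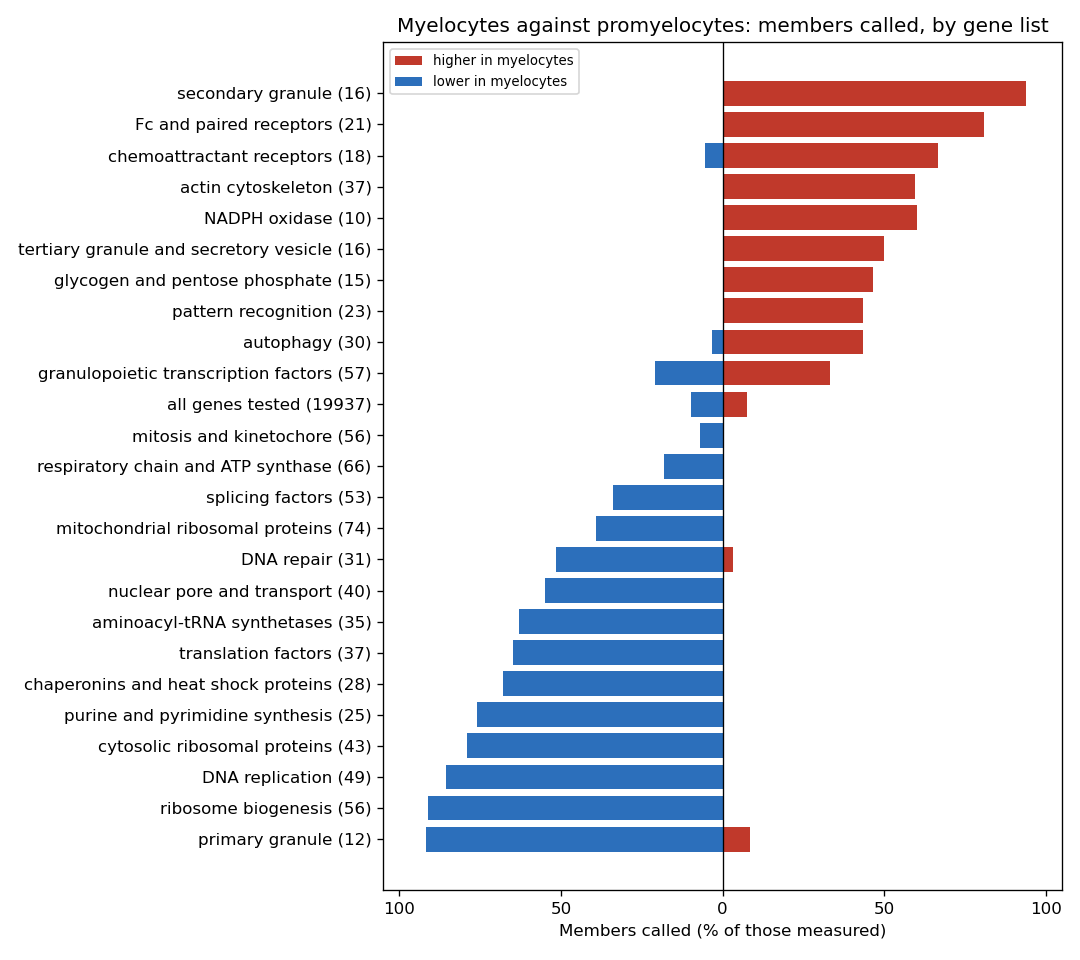
Share of the measured members of each gene list that were called higher (right) or lower (left) in myelocytes than in promyelocytes, in percent, with the number measured in brackets. Secondary granule, receptor and actin lists lie to the right, and the lists of growth and DNA synthesis to the left of all genes tested, of which 7.61% were higher and 9.87% lower.

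The primary granule genes fell with 1 exception. Of 12 members, among them the serine proteases of the azurophil granule, 11 were called lower and 1 higher, with a median difference of -2.82. Elane, which encodes neutrophil elastase, stood at 7.62, 8.17 and 8.58 in myelocytes, against 12.05, 11.85 and 11.42 in promyelocytes (difference -3.65, SE 0.55, adjusted p = 6.02e-05). The decrease was smaller in Ctsc (-1.12, SE 0.25, adjusted p = 0.00194), whose product activates these proteases, and in Srgn (-1.47, SE 0.22, adjusted p = 4.72e-05), the proteoglycan core to which they bind. Serpinb1a, an inhibitor of the same proteases, moved the other way, at 11.63, 11.69 and 11.61 in myelocytes, against 10.38, 10.23 and 10.02 in promyelocytes (1.44, SE 0.25, adjusted p = 0.000236). Protease messages were thus lower and that of their inhibitor higher, with no overlap between the stages, although with cyclic loess normalization Serpinb1a was under the threshold (0.93). Lysosomal hydrolases, which share the route of sorting with primary granules, were split: 4 of 19 were lower and 3 higher. Ctsz, a lysosomal cathepsin, fell by 1.31 (SE 0.22, adjusted p = 0.00014), while the membrane genes Cd63 (1.10, adjusted p = 0.000591) and Lamp2 (1.05, adjusted p = 0.000225) rose just past a fold of 2. Single arrays moved such genes to under it: Cd63 to 0.81 without promyelocyte array 2 and to 0.99 without myelocyte array 3, Lamp2 to 0.87 without promyelocyte array 3 and to 1.00 without myelocyte array 2, and Ctsc to -0.91 without promyelocyte array 1 and to -0.89 without myelocyte array 2.

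Of 16 secondary granule genes 15 were called higher, with a median difference of 4.98, and the remaining one, B4galt1, differed by 0.73 (adjusted p = 0.000927). In the myelocyte arrays the levels were close to one another, whereas promyelocyte array 1 stood above the other promyelocyte arrays for several members. Camp, the cathelicidin gene, stood at 12.98, 12.76 and 12.76 in myelocytes, against 8.86, 6.77 and 6.74 in promyelocytes. Ngp, the neutrophilic granule protein gene, lay between 12.94 and 13.10 in myelocytes, against 10.44, 8.85 and 8.55 in promyelocytes (3.73, SE 0.34, adjusted p = 3.38e-07). S100a9, a subunit of calprotectin in the cytosol, had the same arrangement, at 12.95, 12.94 and 12.98 in myelocytes, against 9.64, 7.80 and 7.83 in promyelocytes (4.53, SE 0.36, adjusted p = 8.70e-08). The stages did not overlap for any of these 3 genes.

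Factors of the C/EBP family bind granule gene promoters, and the letters TTNNGCAA, a common form of their site, were therefore searched on both strands of RefSeq promoter windows (GRCm38.p6) that run from 250 bases before to 50 bases after each start. They stood in 4 of 16 windows of the secondary granule genes and in 3 of 12 of the primary granule genes, beside 9.76% of the 19115 windows of all genes tested. Ngp is shown because its window, chr9:110419558-110419857 on the plus strand, held 2 matches, the most in the list among the windows considered. The matches are in capitals and start at -138 and -11 relative to the start site. Here and below, windows on a single chromosome were left out when a promoter was chosen to be shown.
Ngp: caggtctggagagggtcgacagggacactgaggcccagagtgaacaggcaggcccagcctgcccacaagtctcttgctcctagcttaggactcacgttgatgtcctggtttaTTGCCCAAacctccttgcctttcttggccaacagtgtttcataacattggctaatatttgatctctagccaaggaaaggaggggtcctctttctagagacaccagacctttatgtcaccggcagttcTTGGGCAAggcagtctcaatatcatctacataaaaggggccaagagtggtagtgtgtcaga
A match says only that the letters are present in the window.

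The genes with which a neutrophil senses and attacks microbes rose widely. Of 10 subunits and regulators of the NADPH oxidase, which makes superoxide, 6 were higher (median 1.86). Cybb, the catalytic subunit, stood at 12.85, 12.89 and 12.82 in myelocytes, against 9.76, 8.62 and 9.63 in promyelocytes (3.52, SE 0.25, adjusted p = 2.04e-08). The cytosolic subunits Ncf4 (2.75) and Ncf1 (2.37) rose with it. The 4 members not called were Cybc1 (0.51, adjusted p = 0.115), Vav1 (0.49, adjusted p = 0.0147), Rac1 (0.33, adjusted p = 0.0869) and Vav3 (-0.05, adjusted p = 0.824). Of 21 Fc and paired immunoglobulin-like receptors, which activate or restrain the cell, 17 were higher and 0 lower (median 2.15). The inhibitory receptor gene Pilra stood at 10.73, 10.74 and 10.96 in myelocytes, against 5.77, 5.07 and 5.40 in promyelocytes, a fold of 42.0 (5.39, SE 0.18, adjusted p = 9.61e-12). Cd300lf (5.32), Pirb (5.27) and Lilrb4a (5.20) changed by nearly as much. Near-identical relatives of Pirb and Lilrb4a exist, and the probes may not separate them.

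Among 18 receptors for chemoattractants and lipid mediators 12 were higher and 1 lower (median 1.51). The mean of the list was 8.06, 7.68 and 7.29 in myelocytes, against 5.82, 5.73 and 5.69 in promyelocytes, so that myelocyte array 1 was highest and array 3 lowest, as for the basophil and monocyte markers given further on, whose part was not tested. Without myelocyte array 1 there were 11 higher. C5ar1, the receptor for complement fragment C5a, stood at 10.01, 10.01 and 9.82 in myelocytes, against 4.61, 4.40 and 4.87 in promyelocytes, a fold of 39.8 (SE 0.15 on the log2 scale, adjusted p = 1.48e-12). Cxcr2, a chemokine receptor that draws neutrophils out of the marrow, stood at 10.83, 10.73 and 10.58 in myelocytes, against 6.69, 7.51 and 5.92 in promyelocytes (4.00, SE 0.29, adjusted p = 2.47e-08). Cxcr4, which holds them there, stood at 12.01, 11.97 and 11.86 in myelocytes, against 11.37, 11.21 and 10.55 in promyelocytes, under a fold of 2 (0.90, SE 0.20, adjusted p = 0.00187), and without promyelocyte array 1 it was called (1.07). The exception was P2ry2, a receptor for extracellular nucleotides, which stood at 5.32, 4.90 and 4.67 in myelocytes, against 6.34, 6.59 and 6.38 in promyelocytes (-1.47, SE 0.16, adjusted p = 2.81e-06). Pattern recognition genes were higher in 10 of 23 and lower in 0, led by the lectin gene Clec4a2 (4.22), Tlr13 (4.18) and Tlr7 (3.61), while Cd14 (0.54, adjusted p = 0.114) was not called.

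Of 24 receptors for growth factors and cytokines 8 were higher, 2 lower and 14 not called. Csf3r, the receptor for G-CSF, the main growth factor of neutrophils, stood at 10.08, 10.15 and 10.01 in myelocytes, against 8.40, 8.48 and 8.34 in promyelocytes (1.68, SE 0.14, adjusted p = 1.05e-07). Il1r2, a decoy receptor for interleukin 1, differed most, at 8.97, 9.01 and 9.16 in myelocytes, against 4.61, 4.80 and 4.47 in promyelocytes (4.42, SE 0.18, adjusted p = 7.00e-11). The members called lower were Flt3 (-1.96, adjusted p = 1.30e-05), a receptor of early progenitors, and Il6st (-2.38, adjusted p = 8.12e-06), the shared signalling chain of the interleukin 6 family.

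Actin regulators and adhesion genes followed the receptors. Of 37 actin genes 22 were higher and 0 lower (median 1.35), and with cyclic loess normalization 14 were higher and the median was 0.81. Fgr, a Src family kinase that signals from integrins, stood at 10.31, 10.12 and 10.06 in myelocytes, against 4.99, 4.96 and 5.48 in promyelocytes (5.02, SE 0.16, adjusted p = 5.58e-12). Gsn, which encodes the actin-severing protein gelsolin, stood at 11.20, 10.93 and 10.71 in myelocytes, against 7.17, 6.46 and 6.40 in promyelocytes (4.27, SE 0.24, adjusted p = 1.94e-09). Of 17 adhesion molecules 7 were higher and 2 lower. The 2 chains of the integrin Mac-1, Itgam (4.39) and Itgb2 (3.81), rose together. Pecam1, a junction molecule also found on endothelium, fell by 1.60 (SE 0.32, adjusted p = 0.000729).

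Among 57 transcription factors of granulopoiesis 19 were higher and 12 lower (median 0.35). The C/EBP genes did not move together. Cebpe, which drives secondary granule genes, stood at 9.70, 9.80 and 10.03 in myelocytes, against 7.64, 7.70 and 7.79 in promyelocytes (2.14, SE 0.20, adjusted p = 4.21e-07). Cebpa, which acts at the entry into the lineage, stood at 8.17, 7.21 and 6.79 in myelocytes, against 8.71, 8.63 and 9.11 in promyelocytes (-1.43, SE 0.30, adjusted p = 0.00121). Cebpd rose (1.70, adjusted p = 2.37e-05) and Cebpb was not called (0.69, adjusted p = 0.0604). Cebpa had the widest spread of these in myelocytes, its array 1 lying closest to the promyelocyte arrays.

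The factors with the largest increases were Id2 (3.85), an inhibitor of helix-loop-helix factors, Ets1 (3.43) and the Krüppel-like genes Klf5 (2.98) and Klf7 (2.81). Spi1, which encodes PU.1 and is needed throughout myeloid development, rose less (1.35, SE 0.17, adjusted p = 1.19e-05). The largest decrease was in Irf8, which directs progenitors towards monocytes, at 7.13, 6.29 and 6.36 in myelocytes, against 10.08, 9.07 and 9.73 in promyelocytes (-3.03, SE 0.29, adjusted p = 4.72e-07). Meis1 (-2.75), Myb (-2.45) and Hoxa9 (-1.59), factors of immature progenitors, fell as well. Gfi1, a repressor needed for neutrophil formation, was lower by less than a fold of 2 (-0.60, adjusted p = 0.00316), and Runx1 was not called (-0.10, adjusted p = 0.752). Of 29 stem and progenitor genes 14 were lower and 1, Satb1, was higher (1.43, SE 0.17, adjusted p = 5.89e-06).

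**Figure D2:**
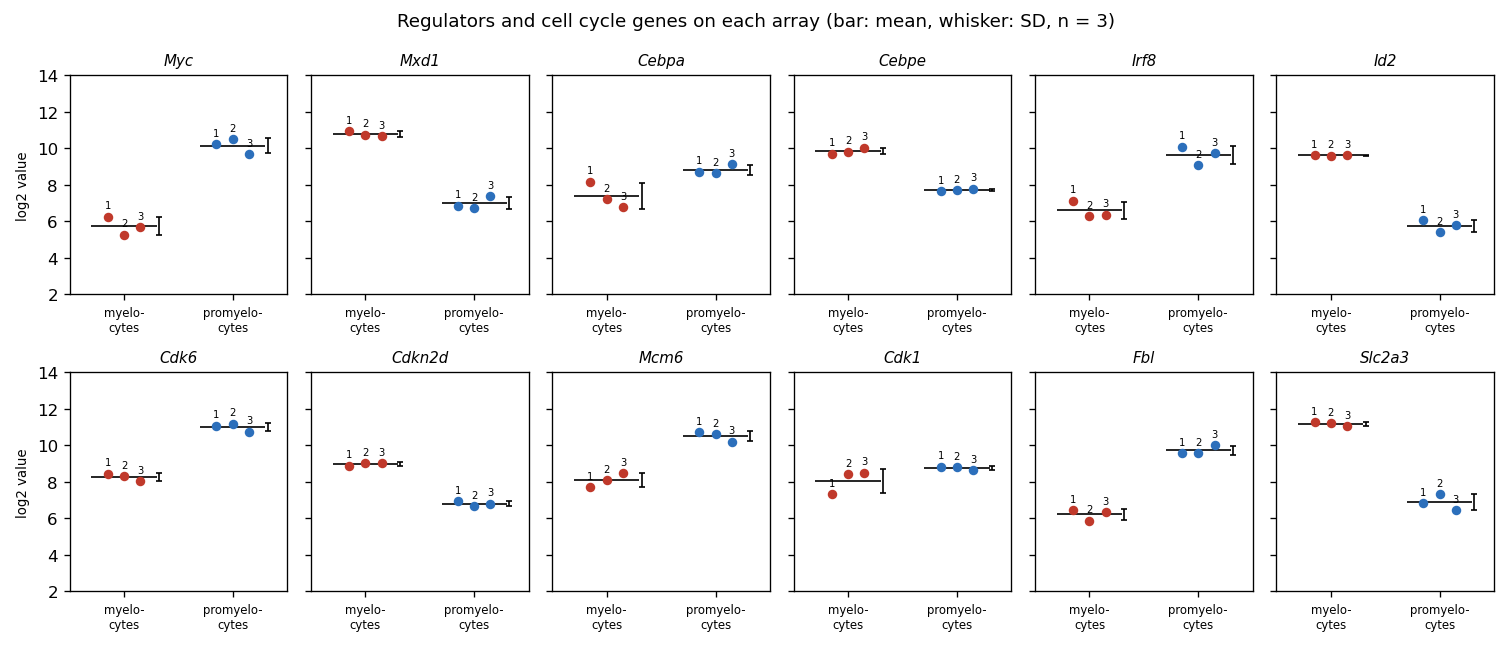
Log2 values of 12 regulators and cell cycle genes on each array, with myelocytes (red) to the left of promyelocytes (blue) and replicate numbers above the points; the line is the mean and the whisker the SD of 3 arrays. Myc, Irf8, Cdk6, Mcm6 and Fbl are lower and Mxd1, Cebpe, Id2, Cdkn2d and Slc2a3 higher on every myelocyte array, whereas Cdk1 on myelocyte arrays 2 and 3 (8.39 and 8.49) lies near the promyelocyte values.

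Within the network of Myc, a factor that drives growth, Myc itself and 2 of its antagonists changed in opposite directions. Myc stood at 6.25, 5.26 and 5.67 in myelocytes, against 10.23, 10.51 and 9.67 in promyelocytes. Mxd1, which competes with Myc for the partner Max, stood at 10.94, 10.73 and 10.66 in myelocytes, against 6.85, 6.73 and 7.36 in promyelocytes, a fold of 13.9 (3.80, SE 0.17, adjusted p = 2.37e-10). In myelocytes Mxd1 was the higher of these on every array and in promyelocytes Myc was, although levels of different probe sets are not on 1 scale. The related antagonist Mxi1 (1.44, adjusted p = 1.37e-07) and Max itself (1.32, adjusted p = 4.14e-07) rose, and the other 9 of the 13 network genes, among them the antagonists Mxd3 (0.80), Mxd4 (0.83) and Mnt (-0.15), Mga (-0.78), Mycn (-0.34, adjusted p = 0.402) and Mlxip (0.00, adjusted p = 0.997), were not called.

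Ribosome biogenesis was among the lists with the largest share of members called lower: 51 of 56 fell and 0 rose, with a median difference of -2.30. Fbl, the methyltransferase of box C/D small nucleolar particles, stood at 6.46, 5.87 and 6.33 in myelocytes, against 9.57, 9.56 and 10.00 in promyelocytes, a fold of 11.2 (-3.49, SE 0.17, adjusted p = 5.07e-10). The nucleolar GTPase gene Gnl3 (-3.73), the assembly factor gene Tsr1 (-3.65) and Dkc1 (-3.42), the pseudouridine synthase of box H/ACA particles, fell by similar amounts. Polr1b (-3.15), a subunit of the polymerase that transcribes ribosomal RNA, fell, whereas Polr1a (-0.33), its largest subunit, was not called. On each array the list had the same position: its mean lay between 6.37 and 6.44 in myelocytes, against 8.34 to 8.80 in promyelocytes.

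The other parts of protein synthesis fell less far. Of 64 cytosolic ribosomal proteins listed 43 were measured, of which 34 were lower and 0 higher (median -1.32). Rpl10a stood at 10.03, 9.32 and 9.57 in myelocytes, against 12.01, 12.11 and 11.73 in promyelocytes (-2.31, SE 0.18, adjusted p = 7.81e-08). Many of these genes have processed pseudogenes that the probes may share, and with the dimmest probe set of Rpl10a in place of the brightest the difference was 0.15 (adjusted p = 0.686). Rpl21, a ribosomal protein gene not among those measured in this list, was the only gene with rows called in opposite directions. Translation factors were lower in 24 of 37, with Eef1e1 (-2.75) and Eif2b3 (-2.65) in front. Aminoacyl-tRNA synthetases were lower in 22 of 35, led by Iars (-2.70). Chaperonins and heat shock proteins were lower in 19 of 28, and Hspa9, a chaperone of the mitochondrial matrix, stood at 7.43, 7.38 and 7.43 in myelocytes, against 10.67, 10.72 and 10.32 in promyelocytes (-3.16, SE 0.14, adjusted p = 2.36e-10). Of 42 genes for folding in the endoplasmic reticulum 17 were lower, with Sdf2l1 (-2.82) and Pdia4 (-2.81) first. None of these 4 lists had a member that was higher.

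The supply of nucleotides and amino acids changed in the same direction. Of 25 genes of purine and pyrimidine synthesis 19 were lower and 0 higher (median -2.20). Atic, which closes the purine ring, stood at 7.08, 6.50 and 6.51 in myelocytes, against 10.30, 10.21 and 9.74 in promyelocytes (-3.39, SE 0.18, adjusted p = 1.35e-09). Cad, which starts pyrimidine synthesis, fell by 2.93 (SE 0.20, adjusted p = 1.34e-08). In serine and folate metabolism 8 of 17 were lower, among them Mthfd1 (-3.72) and Phgdh (-3.67), and 1 was higher: Asns, asparagine synthetase, at 9.02, 8.98 and 9.03 in myelocytes, against 7.63, 8.03 and 7.69 in promyelocytes (1.23, SE 0.18, adjusted p = 5.68e-05). Of 16 amino acid transporters 8 were lower, among them Slc7a6 (-3.05) and Slc7a5 (-2.72), and 2 were higher. These were Slc7a11, which imports cystine (2.26, SE 0.24, adjusted p = 1.52e-06), and Slc7a7 (1.11, SE 0.14, adjusted p = 1.26e-05), which was at 0.97 without promyelocyte array 2. In the polyamine pathway the synthetic genes Srm (-4.23) and Odc1 (-2.19) fell and Sat1 (1.32, adjusted p = 0.000281), which acetylates polyamines for breakdown, rose, though not past the threshold with cyclic loess normalization (0.91).

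The letters CACGTG, the E-box to which Myc and its partners bind and which reads the same on both strands, stood in 277 of 1967 promoter windows of genes called lower (14.1%). They stood in 143 of 1611 windows of genes called higher (8.88%) and in 1159 of 15537 windows of genes not called (7.46%). In the lists the shares were 18.5% for ribosome biogenesis (10 of 54 windows), 16.1% for purine and pyrimidine synthesis (5 of 31) and 4.08% for actin (2 of 49), beside 8.26% of all windows. They were 14.9% for DNA replication (7 of 47), 11.9% for cytosolic ribosomal proteins (5 of 42) and 7.55% for mitosis (4 of 53). The secondary granule genes, which rose, had 12.5% (2 of 16), and the primary granule genes, which mostly fell, had 0 of 12. Rrn3, an initiation factor of ribosomal RNA synthesis (-1.47), and Atic are shown with the E-boxes in capitals. Among the windows considered, Rrn3 held the most matches in its list. Atic had, among the same windows, the largest difference of the 4 genes of its list with a match. The Rrn3 window is chr16:13780449-13780748 on the plus strand, with matches at -215 and -48 relative to the start site, and the Atic window is chr1:71556906-71557205 on the plus strand, with 1 match at -7.
Rrn3: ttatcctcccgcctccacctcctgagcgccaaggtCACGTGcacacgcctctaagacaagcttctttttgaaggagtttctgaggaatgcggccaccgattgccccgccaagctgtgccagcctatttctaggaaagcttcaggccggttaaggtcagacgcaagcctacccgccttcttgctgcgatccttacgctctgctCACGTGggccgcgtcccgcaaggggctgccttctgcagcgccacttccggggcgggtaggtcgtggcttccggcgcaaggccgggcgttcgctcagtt
Atic: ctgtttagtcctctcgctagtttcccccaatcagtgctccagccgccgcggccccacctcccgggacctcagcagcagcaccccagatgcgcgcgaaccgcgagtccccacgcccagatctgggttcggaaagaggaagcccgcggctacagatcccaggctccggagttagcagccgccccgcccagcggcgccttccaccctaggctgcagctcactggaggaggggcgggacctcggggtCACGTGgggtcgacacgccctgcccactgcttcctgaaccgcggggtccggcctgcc
These shares describe letters in windows and were not tested.

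The miRNA genes of 1 cluster fell together. Of 291 miRNA genes tested, 4 were higher and 10 lower (4.81% called, under the 17.5% of all genes). At or under the dim level in both stages were 178 of the 291. Of the 10 lower, 6 belong to the miR-17 cluster on chromosome 14, namely 5 precursors and their host transcript. This cluster was singled out after its values were seen. The array rows read the precursor RNA and not the mature miRNA. Mir19b-1 stood at 3.34, 4.24 and 3.82 in myelocytes, against 6.11, 6.31 and 6.71 in promyelocytes (-2.58, SE 0.26, adjusted p = 1.23e-05), and Mir17hg, the host transcript, fell by 1.54 (adjusted p = 0.000192). Mir18 (-2.39), Mir20a (-2.38), Mir19a (-2.15) and Mir17 (-1.58) had no overlap between the stages. All 6 lay at or under the dim level in myelocytes, so the size of their decrease is limited by it. The largest increase among miRNA genes was in Mir142, of blood cells, at 9.35, 8.93 and 9.92 in myelocytes, against 7.32, 7.01 and 7.49 in promyelocytes (2.12, SE 0.34, adjusted p = 0.000104).

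The mature products of these precursors are shown because they fall into groups by the seed, bases 2 to 8, which pairs with target messages and is in capitals. The sequences are from RefSeq (GRCm38.p6), in which 261 of the 291 genes had a mature entry.
mmu-miR-17-5p: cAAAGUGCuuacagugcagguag
mmu-miR-20a-5p: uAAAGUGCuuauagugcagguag
mmu-miR-18a-5p: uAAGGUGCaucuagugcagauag
mmu-miR-19a-3p: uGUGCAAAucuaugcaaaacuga
mmu-miR-19b-3p: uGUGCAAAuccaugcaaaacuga
mmu-miR-142a-3p: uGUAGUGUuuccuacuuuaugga
The first pair share 1 seed and the miR-19 pair share another, while miR-18a and miR-142a each have a seed of their own here.

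DNA synthesis and mitosis, 2 parts of the division cycle, stood apart from each other. Of 49 DNA replication genes 42 were lower and 0 higher (85.7% called, median -1.56). Of 56 mitosis and kinetochore genes 4 were lower and 0 higher (7.14% called, median -0.29), a share under that of all genes tested. The 6 subunits of the replicative helicase Mcm2 to Mcm7 all fell. Mcm6 stood at 7.69, 8.08 and 8.46 in myelocytes, against 10.73, 10.59 and 10.19 in promyelocytes (-2.42, SE 0.21, adjusted p = 1.84e-07), and the polymerase gene Pola1 at 6.30, 7.00 and 7.09 in myelocytes, against 9.01, 9.12 and 8.50 in promyelocytes (-2.08, SE 0.23, adjusted p = 3.11e-06). Neither overlapped between the stages. Rrm2, a subunit of the enzyme that makes deoxynucleotides, was among the 7 not called (-0.53, SE 0.29, adjusted p = 0.187).

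In mitosis, Ccnb2, a cyclin of the entry into mitosis, stood at 9.16, 9.92 and 9.82 in myelocytes, against 9.51, 9.38 and 9.57 in promyelocytes (0.15, SE 0.22, adjusted p = 0.685). Top2a, which untangles chromosomes, stood at 9.16, 10.37 and 10.24 in myelocytes, against 10.31, 10.30 and 10.06 in promyelocytes (-0.30, SE 0.30, adjusted p = 0.527). Both overlapped between the stages, and on myelocyte arrays 2 and 3 they were as high as in promyelocytes or nearly so. The members called lower were Mybl2 (-1.68), Cks1b (-1.48), Cenph (-1.33) and Cenpn (-1.05). Cenph was at -0.92 without myelocyte array 1, and Cenpn at -0.87 to -0.92 without myelocyte array 1, promyelocyte array 1 or promyelocyte array 2.

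Myelocyte array 1 was lower than the other 2 myelocyte arrays for 54 of the 56 mitosis genes and for 47 of the 49 replication genes. The mean of the mitosis list was 7.28, 8.25 and 8.11 on the myelocyte arrays, against 8.29, 8.25 and 8.01 on the promyelocyte arrays. The mean of the replication list was 6.62, 7.15 and 7.28 in myelocytes, against 8.79, 8.72 and 8.15 in promyelocytes, with no overlap. Without myelocyte array 1 the mitosis list had 2 members lower and a median of 0.05, and the replication list had 37 lower and a median of -1.37. A p above the threshold does not show that the mitosis genes were equal in the 2 stages.

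**Figure D3:**
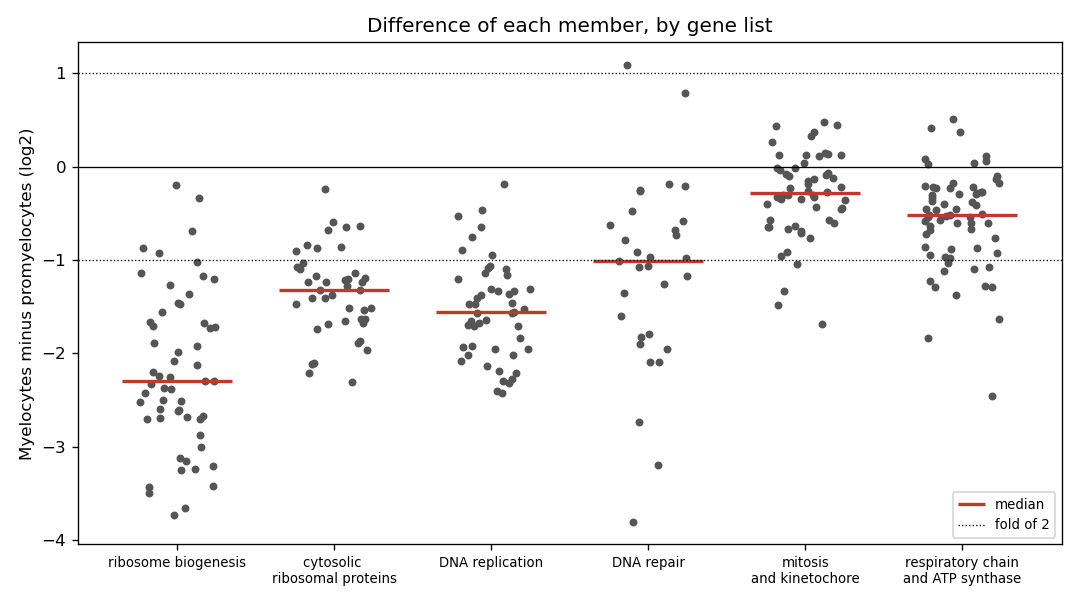
Difference between myelocytes and promyelocytes (log2) of each measured member of 6 gene lists, with the median as a red line and dotted lines at a fold of 2. The members of ribosome biogenesis and DNA replication all lie under 0, around medians of -2.30 and -1.56, while the mitosis and kinetochore genes lie around -0.29 on both sides of 0.

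The regulators of the G1 phase changed in both directions, 5 of 21 higher and 5 lower. Cdk6, a kinase that starts the cycle, stood at 8.43, 8.29 and 8.03 in myelocytes, against 11.06, 11.17 and 10.74 in promyelocytes (-2.74, SE 0.15, adjusted p = 1.61e-09). Its relative Cdk4 (-2.85) and their partner Ccnd2 (-3.29) fell, whereas another partner, Ccnd3, rose (1.87, SE 0.19, adjusted p = 8.75e-07). Cdkn2d, an inhibitor of both kinases, stood at 8.87, 9.03 and 9.00 in myelocytes, against 6.92, 6.66 and 6.81 in promyelocytes (2.17, SE 0.16, adjusted p = 4.42e-08). Cdkn1b (1.30) and Rb1 (1.53), further brakes on G1, rose as well, and Cdk2 was not called (0.60, adjusted p = 0.00652). Of the 10 E2F factors and partners, which control replication genes, E2f2 rose (2.54, SE 0.20, adjusted p = 5.78e-08) and E2f6 (-2.13) and Tfdp2 (-1.71) fell. DNA repair genes were lower in 16 of 31, led by the base excision nuclease gene Apex1 (-3.80) and Parp1 (-3.20), and 1 was higher, the ligase gene Lig4 (1.09, adjusted p = 5.53e-05).

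Promoter letters differed between the lists of DNA synthesis and mitosis. The E2F form TTTGGCGC, searched on both strands, stood in 6 of 47 replication windows (12.8%) and in 1 of 53 mitosis windows (1.89%), beside 0.722% of all windows. Another E2F form, TTTCCCGC, stood in the same numbers of windows in these lists, beside 1.51% of all windows. The letters CCAAT on either strand, which the factor NF-Y binds, stood in 43 of 53 mitosis windows (81.1%) and in 29 of 47 replication windows (61.7%), beside 37.4% of all windows. TTTGGCGC and CCAAT do not contain each other. Mcm6 (chr1:128359656-128359955, minus strand) is shown with its 2 E2F matches in capitals, which start at -110 and -47 relative to the start site, and Top2a (chr11:99024140-99024439, minus strand) with its 6 CCAAT matches in capitals, read as ATTGG where they lie on the opposite strand. Among the windows considered, Mcm6 had the most TTTGGCGC matches in its list, and Top2a tied with Ube2c for CCAAT and had the larger difference.
Mcm6: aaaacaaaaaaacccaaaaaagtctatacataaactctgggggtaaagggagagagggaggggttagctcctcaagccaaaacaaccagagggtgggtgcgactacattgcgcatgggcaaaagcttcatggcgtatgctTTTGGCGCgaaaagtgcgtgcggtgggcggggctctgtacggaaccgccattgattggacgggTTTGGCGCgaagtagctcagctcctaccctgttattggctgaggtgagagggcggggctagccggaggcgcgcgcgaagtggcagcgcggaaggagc
Top2a: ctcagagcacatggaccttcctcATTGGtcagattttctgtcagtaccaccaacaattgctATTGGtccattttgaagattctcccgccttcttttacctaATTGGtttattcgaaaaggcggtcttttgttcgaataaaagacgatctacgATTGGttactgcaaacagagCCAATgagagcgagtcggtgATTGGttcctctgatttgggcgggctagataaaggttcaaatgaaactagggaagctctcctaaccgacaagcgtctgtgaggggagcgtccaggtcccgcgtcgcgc
No match was read as evidence that a factor acts there.

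Mitochondrial genes were lower where they were called. Of 66 genes of the respiratory chain and ATP synthase 12 were lower and 0 higher (18.2%, beside 9.87% of all genes lower), 58 were under 0 and the median was -0.51. In the citric acid cycle 8 of 29 were lower and 0 higher. Idh2, the mitochondrial isocitrate dehydrogenase that makes NADPH, stood at 6.51, 6.50 and 6.66 in myelocytes, against 10.18, 10.48 and 10.02 in promyelocytes, a fold of 12.7 (-3.67, SE 0.15, adjusted p = 6.39e-11). Pdk1 (-3.20), a kinase that closes the entry of pyruvate, and Suclg2 (-3.08) followed. Slc25a4, the carrier that exchanges ADP and ATP across the inner membrane, fell by 3.65 (SE 0.21, adjusted p = 2.63e-09). Of 24 genes of mitochondrial import and upkeep 17 were lower, with C1qbp (-3.98) first, and of 74 mitochondrial ribosomal proteins 29 were lower, with Mrpl38 (-2.30) first.

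Of 23 genes of glycolysis and glucose uptake 3 were higher, 3 lower and 17 not called (median 0.14). Slc2a3, the glucose transporter GLUT3, stood at 11.26, 11.20 and 11.05 in myelocytes, against 6.84, 7.33 and 6.45 in promyelocytes, a fold of 19.7 (4.30, SE 0.23, adjusted p = 1.25e-09). The transporters of lactate changed places: Slc16a1 stood at 4.84, 5.25 and 5.05 in myelocytes, against 8.85, 9.26 and 8.43 in promyelocytes (-3.80, SE 0.25, adjusted p = 8.96e-09). Slc16a3, the form found in glycolytic cells, stood at 9.77, 9.58 and 9.60 in myelocytes, against 6.90, 7.03 and 7.02 in promyelocytes (2.66, SE 0.14, adjusted p = 1.30e-09). The phosphofructokinase genes Pfkm (-1.73) and Pfkl (-1.30) were lower, and Pfkfb4 (3.22), whose product sets the level of their activator, was higher. Of 15 genes of glycogen and the pentose phosphate pathway 7 were higher and 0 lower, among them Pygl (2.79), which releases glucose from glycogen, Gys1 (1.62), which makes glycogen, and Pgd (1.10), which was not called with cyclic loess (0.50) or quantile normalization of the genes (0.81).

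Iron genes moved in both directions, 4 of 25 higher and 5 lower. Slc40a1, which encodes the iron exporter ferroportin, stood at 10.32, 10.08 and 10.00 in myelocytes, against 7.03, 6.88 and 6.38 in promyelocytes (3.37, SE 0.18, adjusted p = 1.12e-09). Tfrc, the receptor for iron uptake, stood at 6.59, 7.76 and 7.33 in myelocytes, against 9.29, 9.49 and 8.61 in promyelocytes (-1.90, SE 0.37, adjusted p = 0.000587). The exporter was thus higher and the importer lower, without overlap. Of 26 antioxidant genes 9 were lower and 3 higher. The peroxiredoxin genes Prdx2 (-2.43) and Prdx1 (-1.94) fell, and Mgst1 (2.94), a membrane glutathione transferase, rose.

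The nucleus of the neutrophil is deformable and later lobed, and the genes of its envelope were examined for this reason. Of 15 members 3 were higher and 1 lower. Syne1, a giant spectrin repeat protein that ties the nucleus to actin, stood at 11.04, 10.96 and 11.07 in myelocytes, against 6.91, 6.42 and 7.31 in promyelocytes (4.14, SE 0.19, adjusted p = 2.45e-10), and its relative Syne2 rose by 3.48 (SE 0.20, adjusted p = 2.75e-09). Lbr, the lamin B receptor whose loss prevents lobing, was at 11.70, 11.58 and 11.50 in myelocytes, against 11.01, 11.12 and 10.06 in promyelocytes, and was not called (0.86, SE 0.26, adjusted p = 0.0167), although it was without promyelocyte array 1 (1.00) or array 2 (1.06). Lmnb1 was not called either (-0.58, adjusted p = 0.0533). Nuclear pore and transport genes were lower in 22 of 40 and higher in 0, led by Ipo5 (-2.59). Among 44 chromatin enzymes 14 were lower, led by the arginine methyltransferase gene Prmt5 (-3.14), and 4 were higher, of which the demethylase gene Kdm6b differed most (2.13, SE 0.23, adjusted p = 2.42e-06). Of 19 genes of miRNA processing Drosha, which cuts primary transcripts, fell by 2.19 (SE 0.16, adjusted p = 3.08e-08), Tut7 (1.60) and Tnrc6b (1.49) rose, and Dicer1 was not called (-0.49, adjusted p = 0.0185).

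Autophagy genes, which act in neutrophil maturation, were higher in 13 of 30 and lower in 1 (median 0.83). The largest increases were in Trp53inp2 (4.03) and Trp53inp1 (3.94), whose products take part in building autophagosomes. Wipi1, which reads lipids at the forming autophagosome, stood at 8.67, 8.63 and 8.83 in myelocytes, against 5.82, 6.06 and 6.60 in promyelocytes (2.55, SE 0.17, adjusted p = 1.24e-08). The exception was Gabarapl1, at 5.21, 4.69 and 4.50 in myelocytes, against 7.57, 7.70 and 7.46 in promyelocytes (-2.78, SE 0.23, adjusted p = 1.42e-07), while its relatives Gabarap (1.36, and 0.80, not called, with cyclic loess) and Gabarapl2 (1.42) rose. Among 27 apoptosis genes 6 were higher and 1 lower. The survival gene that was lower was Bcl2, at 6.38, 6.42 and 6.24 in myelocytes, against 8.50, 8.33 and 8.53 in promyelocytes (-2.11, SE 0.13, adjusted p = 4.86e-09). Mcl1, a survival gene of the same family on which neutrophils depend, rose (1.10, SE 0.19, adjusted p = 0.000227), but was not called with cyclic loess (0.46, adjusted p = 0.0923) or quantile normalization of the genes (0.83). The death receptor gene Fas rose (2.02). Bcl2 is also among 13 messages that the study chose on these samples, of which 7 were lower and 0 higher, so this count is not independent evidence of its direction.

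Interferon-response and Schlafen genes were higher in 14 of 34 and lower in 3. The Schlafen genes, which restrain growth of immune cells in mice, divided: Slfn1 stood at 10.03, 9.93 and 10.18 in myelocytes, against 4.59, 4.58 and 4.12 in promyelocytes (5.62, SE 0.19, adjusted p = 1.15e-11), and Slfn2 rose by 3.49, whereas Slfn9 fell by 1.09 (SE 0.21, adjusted p = 0.000604), or by 0.95 without promyelocyte array 2. Oas2 (3.22), Oas3 (2.94) and Irf7 (2.59), which respond to interferon, were higher. Gbp3, a guanylate-binding protein, stood at 5.59, 5.41 and 5.25 in myelocytes, against 8.72, 8.54 and 8.31 in promyelocytes (-3.11, SE 0.16, adjusted p = 7.75e-10).

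Markers of other cell types moved with single arrays. Of 19 basophil, mast cell and eosinophil markers 6 were higher and 3 lower. Fcer1a, a chain of the IgE receptor of basophils and mast cells, stood at 10.12, 8.07 and 6.95 in myelocytes, against 7.11, 3.25 and 5.66 in promyelocytes (3.04, SE 0.77, adjusted p = 0.00525). The basophil protease gene Prss34 stood at 12.68, 11.91 and 10.59 in myelocytes, against 11.16, 6.67 and 9.77 in promyelocytes (2.53, SE 0.78, adjusted p = 0.0174). For both genes myelocyte array 1 was the highest and promyelocyte array 2 the lowest, and the stages overlapped. Prss34 was no longer called without promyelocyte array 2 (1.26, adjusted p = 0.0599), myelocyte array 1 (2.05, adjusted p = 0.0776) or myelocyte array 2 (2.44, adjusted p = 0.0522), nor in a fit of only the 6 arrays (adjusted p = 0.0817) or with a trended, robust eBayes (adjusted p = 0.0967). Mcpt8, another basophil protease, was at 12.15, 10.98 and 9.70 in myelocytes, against 10.55, 8.33 and 9.77 in promyelocytes, and was not called (1.39, adjusted p = 0.0566). It was called in other settings, among them the replicate block (adjusted p = 0.0412), arrays centred on the 75th percentile (1.45, adjusted p = 0.039), dim genes left out (adjusted p = 0.0461), and without promyelocyte array 1 (1.89) or myelocyte array 3 (2.01). The mean of this list was 7.44, 6.82 and 6.12 in myelocytes, against 7.27, 5.66 and 6.96 in promyelocytes, and 2 of the 19 markers were at or under the dim level in both stages.

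The eosinophil granule genes had another arrangement. Epx, eosinophil peroxidase, stood at 4.62, 5.11 and 4.84 in myelocytes, against 9.81, 5.05 and 10.19 in promyelocytes (-3.49, SE 0.88, adjusted p = 0.00477), and Prg2, the major basic protein, at 6.55, 7.26 and 6.90 in myelocytes, against 11.37, 6.97 and 11.46 in promyelocytes (-3.03, SE 0.87, adjusted p = 0.0116). Promyelocyte arrays 1 and 3 were high, and array 2 lay with the myelocytes. Prg2 was not called without promyelocyte array 1 (-2.31, adjusted p = 0.0685) or array 3 (-2.27, adjusted p = 0.067). Of 31 monocyte, macrophage and dendritic cell markers 6 were higher and 6 lower. The differences ran from -3.03, the value given above for Irf8, to 2.33, so that the largest change was a decrease. Among those higher were Cd74, the class II invariant chain, at 9.78, 8.86 and 6.51 in myelocytes, against 5.84, 5.47 and 6.85 in promyelocytes (2.33, SE 0.60, adjusted p = 0.00541), and H2-Aa, at 10.07, 9.15 and 6.71 in myelocytes, against 6.47, 6.03 and 7.54 in promyelocytes (1.97, SE 0.60, adjusted p = 0.0175). H2-Aa was not called without myelocyte array 1 (1.25) or 2 (1.71) or promyelocyte array 1 (1.86) or 2 (1.64), nor in a fit of only the 6 arrays (adjusted p = 0.0737) or with a trended, robust eBayes (adjusted p = 0.0817). Myelocyte array 3 overlapped with the promyelocyte arrays for both. Without myelocyte array 1 there were 1 higher and 7 lower in this list, without array 2 there were 2 and 5, without array 3 there were 10 and 5, and without promyelocyte array 1 there were 3 and 5. The mean of the list was 7.07, 6.67 and 5.93 in myelocytes, against 6.61, 6.36 and 6.51 in promyelocytes, and 3 markers were at or under the dim level in both stages.

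Some mediators and receptors varied between the myelocyte arrays in the same way. Of the genes called higher, 31 had a range of 2 or more (log2) among the myelocyte arrays, and 28 of these were highest on array 1 and lowest on array 3. C3ar1, the receptor for complement fragment C3a, stood at 8.58, 7.08 and 5.46 in myelocytes, against 3.04, 3.17 and 4.07 in promyelocytes (3.61, SE 0.53, adjusted p = 4.39e-05). The lipoxygenase gene Alox15 stood at 10.18, 8.52 and 7.05 in myelocytes, against 5.83, 5.53 and 6.39 in promyelocytes (2.67, SE 0.51, adjusted p = 0.000526), and the chemokine gene Ccl3 at 12.39, 11.45 and 10.35 in myelocytes, against 8.49, 8.53 and 9.95 in promyelocytes (2.40, SE 0.43, adjusted p = 0.000308). Il6 (2.66) and Jchain (3.09), a chain of secreted antibodies, were arranged likewise. The part of basophils or other cells in these differences was not tested. In contrast Alox5, the enzyme of leukotriene synthesis, stood at 11.46, 11.22 and 11.11 in myelocytes, against 8.07, 6.92 and 7.77 in promyelocytes (3.68, SE 0.23, adjusted p = 5.38e-09), and Il1b, the interleukin 1 beta gene, at 6.78, 6.52 and 6.57 in myelocytes, against 4.15, 4.34 and 3.98 in promyelocytes (2.47, SE 0.17, adjusted p = 1.78e-08).

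**Figure D4:**
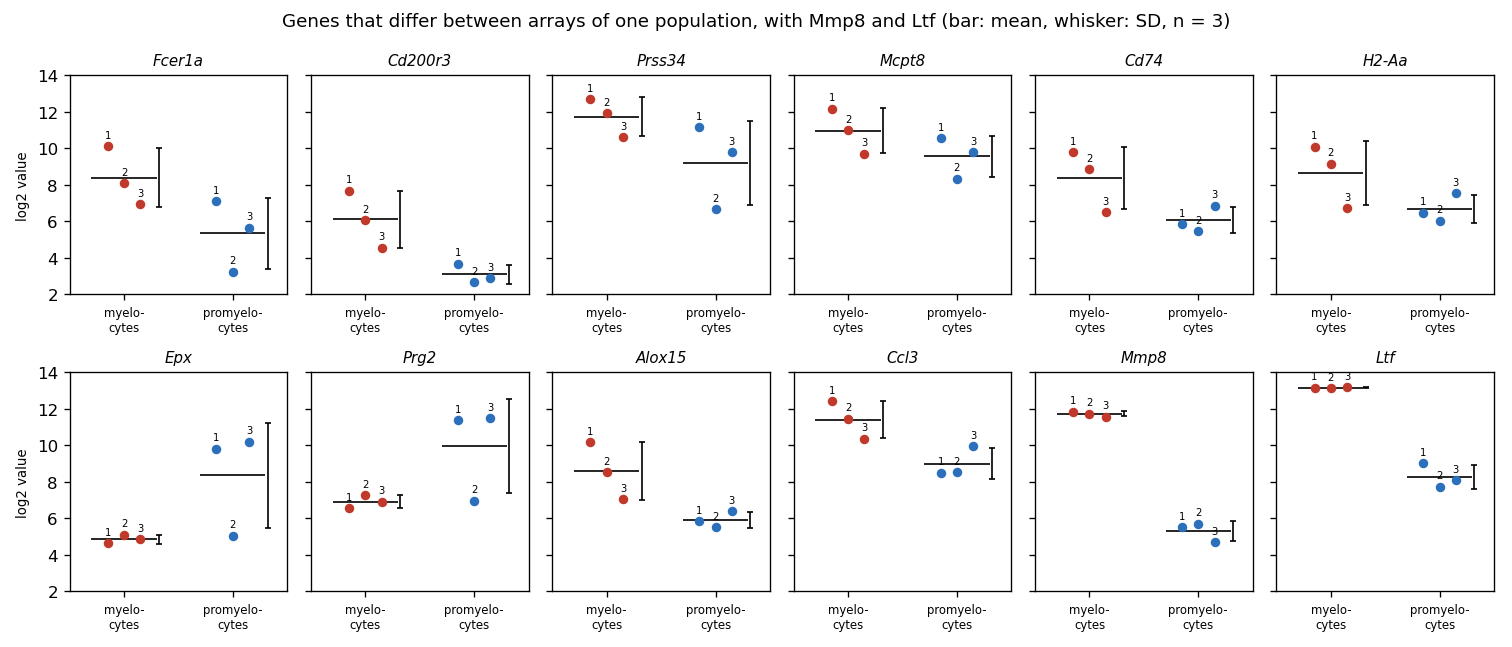
Log2 values of 12 genes on each array, with myelocytes (red) to the left of promyelocytes (blue) and replicate numbers beside the points; the line is the mean and the whisker the SD of 3 arrays. Fcer1a, Cd200r3, Prss34, Mcpt8, Cd74, H2-Aa, Alox15 and Ccl3 are highest on myelocyte array 1 and lowest on myelocyte array 3, Epx and Prg2 are high on promyelocyte arrays 1 and 3, and Mmp8 and Ltf are tight in myelocytes.

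The remaining marker lists had few members called. Of 24 B, T and NK cell markers 13 were at or under the dim level in both stages, 1 was higher (Il7r, 1.97, adjusted p = 0.000576) and 2 were lower, namely Nkg7 (-3.38), also one of the primary granule genes listed, and Cd79b (-1.48). The mean of that list was 4.28 to 4.42 over the myelocyte arrays, against 4.24 to 4.48 over the promyelocyte arrays. Of 18 erythroid and megakaryocyte markers 0 were higher and 2 lower, and of 14 stromal and endothelial markers 1 was higher, Acta2 (1.91), and 2 lower, 21.4% beside the background of 17.5%.

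The brightest genes depended on the scaling. Among the 10 genes brightest on average over these 6 arrays, limma called 1, Rps6 (-1.14, adjusted p = 0.000699). With its dimmest row in place of the brightest, Rps6 was not called (-1.15, adjusted p = 0.142 in limma). Nor was it in limma's test against a fold of 1.5 (adjusted p = 0.0784). With cyclic loess normalization Eef1a1 (-1.62), Pabpc1 (-1.75), Rpl9 (-1.56), Rpph1 (-1.15) and COX2 (-1.06) were called lower as well, and with quantile normalization of the genes Pabpc1 (-1.20) and Rpl9 were. Actb, which encodes beta-actin, stood at 13.60, 13.42 and 13.39 in myelocytes, against 12.95, 12.85 and 12.67 in promyelocytes (0.65, SE 0.14, adjusted p = 0.00154), under a fold of 2. Rn7sk, a small nuclear RNA, differed by 0.11 (SE 0.16, adjusted p = 0.69).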

How the data were processed

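Total RNA of sorted cells had been hybridised by the authors to 1-colour Affymetrix Mouse Gene 1.0 ST arrays, and the deposited log2 values had been made by them with justRMA (background correction, quantile normalization of probes, median polish), which gives all arrays of the series nearly the same distribution, so a change of total RNA per cell does not show. No further normalization was applied. Of 34760 rows, the 21640 with 1 gene symbol in the platform's table were used, and for the 954 genes with several rows the brightest on average over the 12 arrays was kept, which left 19937 genes. Of the 21640 rows 21553 were matched by gene ID to RefSeq.

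A linear model with 4 group means was fitted to all 12 arrays with limma 3.58.1 (lmFit, eBayes) under R 4.3.3, with 8 residual and 7.02 prior degrees of freedom. The contrast was myelocytes minus promyelocytes, adjusted by Benjamini-Hochberg over all genes. The median within-group SD was 0.14 in myelocytes and 0.21 in promyelocytes, the median SE of a difference was 0.17, and the number of arrays limits the precision. Arrays correlated at 0.986 to 0.991 within myelocytes, 0.981 to 0.991 within promyelocytes and 0.898 to 0.911 between them. The script was tested on simulated data. Deviations of same-numbered arrays from their group means correlated at 0.18, 0.12 and 0.20, and those of different-numbered arrays at -0.16 to 0.02. The labels do not say that same-numbered arrays are pairs. The main fit did not pair them, and the replicate block was run as an alternative.

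The largest changes, members of the lists with the largest differences, members that moved against their list, and the 10 brightest genes were the ones named, predicted genes were left out, and not every gene of the rule is printed. The comparison, gene lists, promoter motifs and this rule were chosen with earlier results of these data known, and lists were described by counts and medians without a test. Promoter and miRNA sequences were read from RefSeq tables of GRCm38.p6. The alternatives were other scalings, filters, row choices, thresholds, estimates of the spread, the block and each array left out. Mature miRNA levels were not analysed here.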

Additional observations from a re-analysis of the deposited data

Results flagged for a closer look

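Rows with no gene symbol or with several were outside the comparison, and signal appeared there too: of 13120 such rows, 971 (7.40%) were higher and 600 (4.57%) lower in myelocytes by the same threshold in limma.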

How the results depend on the processing

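The counts of 1517 genes higher and 1968 lower stayed within 1.5 times under every alternative except that without a minimum fold, which gave 3102 higher and 3798 lower. With 1 array left out they ranged from 1442 to 1602 higher and from 1808 to 2226 lower. With the replicate number as a block (replicate block) they were 1517 higher and 1971 lower, and the block ended no call of a named gene and added 1, Mcpt8. Centring each array on its median gave 1387 higher and 2185 lower. Of 239 named genes 203 kept their call in all 25 settings tried. Rpl10a changed sign with the dimmest row in place of the brightest (0.15), and the cause was not tested. Cyclic loess normalization took 9 named genes to under the threshold, among them Serpinb1a (0.93), Mcl1 (0.46), Pgd (0.50), Sat1 (0.91) and Gabarap (0.80), and took 5 of the brightest genes past it as lower: Eef1a1, Pabpc1, Rpl9, Rpph1 and COX2. Mxd3 was called higher with it. Only 3 arrays a stage, and dim signal in promyelocytes for 150 of the genes called higher, limit the precision of single folds.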

Other observations

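Gene families were also counted by shared name. Of 70 Rab GTPases and their partners 14 were higher and 2 lower in myelocytes, with Rab3d (2.05) and Rab11fip1 (1.80), which act in secretion and recycling, among the increases, and Rab38 (-3.26) and Rab7b (-2.31) as the decreases. Vacuolar protein sorting genes were higher in 7 of 35 and lower in 1, and subunits of the V-ATPase, which acidifies vesicles, in 3 of 21 and 0 (14.3% called, under the 17.5% of all genes). Of 94 genes named as CD antigens 28 were higher and 7 lower. The 7 include Cd34, which the gate sets. Among the 28 was Cd33 at 11.23, 11.31 and 10.98 in myelocytes, against 6.16, 5.98 and 6.47 in promyelocytes (4.98, SE 0.18, adjusted p = 1.39e-11).

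RNA exosome subunits were lower in 5 of 9, subunits of RNA polymerases in 11 of 27, DEAD-box helicases in 10 of 35 with 2 higher, and small nucleolar RNAs in 14 of 52. Zinc finger genes were lower in 42 of 350 and higher in 11 (15.1% called, also under that background). Of 26 genes of cholesterol synthesis and uptake 2 were higher, Msmo1 (2.27) and Hsd17b7 (1.75), and 3 lower, Dhcr7 (-1.55), Fdps (-1.28) and Scap (-1.04), the last at -0.97 without promyelocyte array 2 or myelocyte array 3.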
